A study of Mus musculus with 8 samples.

Results

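The 26S proteasome is the protease complex that degrades ubiquitin-tagged proteins in the cytosol and nucleus. Its 34 genes examined here were those with a symbol of the form Psma, Psmb, Psmc or Psmd followed by a number, without the interferon-inducible subunits Psmb8, Psmb9 and Psmb10. Each gene was read from 1 probe set, the brightest of those that carry its symbol alone, so the members are 34 of 17097 genes measured. Psmc6 and Psmd10, which have symbols of the same form, were not analysed here. By role, the members were 7 alpha ring, 7 beta ring, 5 base ATPase, 3 base non-ATPase and 8 lid genes, the base assembly chaperones Psmd5 and Psmd9, the testis alpha subunit gene Psma8 and the thymic beta subunit gene Psmb11. The word constitutive therefore fits 30 of the 34 by textbook role.

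Dermal fibroblasts of 8 C57Bl/6 males were profiled, 4 of them young at 2 months and 4 old at 18 months, on 1 Affymetrix array each, with no transgene or treatment named. The cells were sorted from collagenase-digested skin as CD45-, CD117-, CD24-, CD31- and EpCam-negative and Pdgfra- and CD34-positive, and their RNA was amplified over 21 cycles from 5000 cells. The comparison asks how age alters the transcripts of these cells. Values are log2 expression values that the authors made with RMA, a method that brings all arrays to a common distribution, so a change of 1 is a doubling relative to the other genes of the array. A gene whose mean stayed at or under 5.10, the median of all probe sets, in both ages is called dim. In such data fewer cells of a type and less RNA per cell cannot be told apart.

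In the proteasome, a core particle holds the proteolytic sites inside stacked rings of alpha and beta subunits. A regulatory particle caps it: its lid removes ubiquitin, and its base binds, unfolds and feeds the substrate through a ring of ATPases. Transcription factors of the Nfe2l family, chiefly Nfe2l1, are known to raise many subunit genes together when proteasome activity falls short. Lower proteasome activity has been described in several ageing tissues, and fibroblasts, which secrete large amounts of matrix protein, use the proteasome to clear misfolded chains.

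Array medians lay between 5.06 and 5.14. Of the 7 fibroblast markers, 6 were above 5.10 and none passed the test of age; the exception was the brightest Pdgfra probe set, although Pdgfra protein was a sorting criterion. Markers of immune cells (3 of 8 above 5.10), endothelial cells (3 of 4), mural cells (2 of 3) and mast cells (0 of 4) had summed levels whose ranges in young and old mice overlapped, with none called. Summed keratinocyte markers ranged from 8.18 to 9.10 in young and from 8.60 to 10.30 in old mice, and summed melanocyte markers from 7.27 to 7.82 in young and from 8.88 to 9.98 in old mice, with Mlana called higher and Dct, Tyr and Tyrp1 below 5.10. Their part in the proteasome values was not tested. The adipocyte (0 of 2 above 5.10) and Schwann cell (2 of 2) lists had overlapping ranges too. Those of the skeletal muscle list (1 of 4) barely overlapped, with 6.661 to 6.754 in young and 6.748 to 6.906 in old mice.

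None of the 34 proteasome genes passed the test of age. With limma over all 17097 genes and Benjamini-Hochberg adjustment, 0 members had an adjusted p under 0.05, against a background of 3.97% of all genes in either direction (1.82% higher and 2.15% lower in old mice). At that share 0 of 34 is not a result particular to the members. At an unadjusted p under 0.05 there were 2 members, Psmc3 and Psmd4, against 15.1% of all genes. The change, always given as old minus young on the log2 scale, had a median of -0.02 over the members and of 0.01 over all genes, and 15 members had a higher and 19 a lower mean in old mice. The members' changes ran from -0.26 for Psmd5 to 0.29 for Psmc5, so that 0 of 34 exceeded 0.5 in size (1.41-fold), against 4.42% of all genes. Their 95% intervals ran from -0.59 to 0.76 in all, and 28 of the 34 lay within 0.5 of 0, against 80.9% of all genes. Smaller changes than these intervals span cannot be told from none with 4 mice per age.

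**Figure D1:**
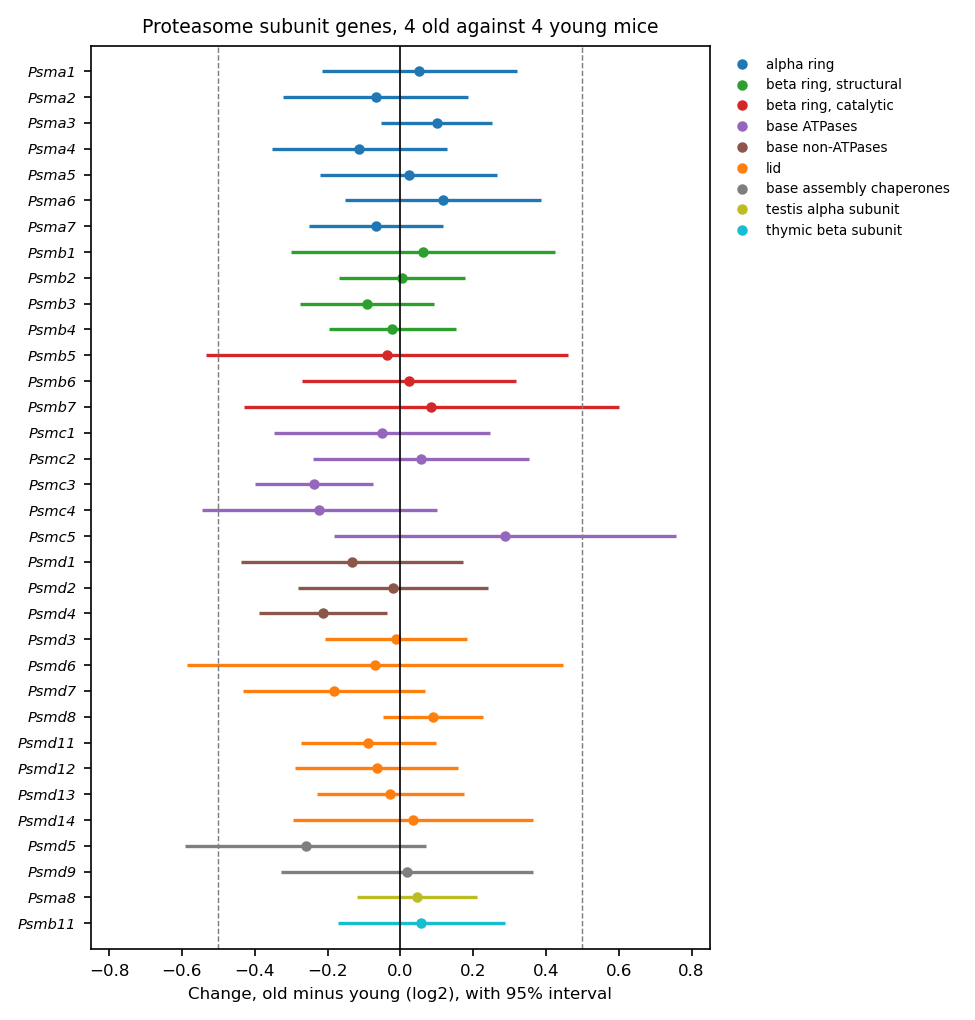
Change of each of the 34 proteasome genes, old minus young (log2, horizontal axis), as a point with its 95% interval from limma (n = 4 mice per age), coloured by role; dashed lines mark -0.5 and 0.5. All points lie between -0.26 and 0.29, and the intervals of Psmc3 and Psmd4 do not reach 0.

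Both subunit genes known from other organs were near the level of the non-specific control probe sets, whose median was 3.91. Psma8, the alpha subunit of sperm-forming cells, had 4.25 ± 0.05 in young and 4.29 ± 0.12 in old mice (SD, n = 4). Psmb11, the beta subunit of thymic cortical epithelium, had 4.23 ± 0.10 and 4.29 ± 0.19. Both lay under 5.10 in all mice, and the other 32 members had means above it in at least 1 age.

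The alpha ring, which gates entry to the core, had changes from -0.11 (Psma4) to 0.12 (Psma6) with a median of 0.02. Its 7 genes all missed the threshold, with limma adjusted p from 0.580 to 0.966. Psma1 (0.05), Psma3 (0.10) and Psma5 (0.02) had slightly higher means in old mice, and Psma2 and Psma7 lower ones (-0.07 each). The narrowest interval in the ring was that of Psma3, from -0.05 to 0.25. The structural beta genes Psmb1, Psmb2, Psmb3 and Psmb4 had changes of 0.06, 0.01, -0.09 and -0.02. The interval of Psmb2 ran from -0.17 to 0.18.

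The catalytic sites of the core lie in Psmb5, Psmb6 and Psmb7, the chymotrypsin-like, caspase-like and trypsin-like subunits. Psmb5 had 9.60, 9.32, 9.59 and 8.49 in young replicates 1 to 4 and 9.02, 9.24, 9.36 and 9.23 in old replicates 1 to 4. The first 3 young mice differed from the last by more than the whole range of the old mice, and the groups overlapped. The change of Psmb5 was -0.04 ± 0.22 (SE; limma adjusted p = 0.971), and without young replicate 4 it was -0.29 (limma adjusted p = 0.224). Psmb7 had 8.79, 8.63, 9.20 and 7.94 in young and 8.42, 8.79, 8.85 and 8.84 in old mice, a change of 0.08 ± 0.23, or -0.15 without young replicate 4. For this gene too, young replicate 4 was the lowest of all 8 mice, and neither form of the comparison passed. Psmb6 had 9.58, 9.73, 9.98 and 9.53 in young and 9.48, 9.60, 9.89 and 9.94 in old mice, a change of 0.02 ± 0.13. Its groups covered nearly the same range, with no mouse apart.

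Promoter sequences of these genes are shown because the family is known for shared control through antioxidant response elements, the sites of the Nfe2l factors. They are RefSeq windows (GRCm38.p6) from 250 bases before to 50 after the annotated start, given for 27 of the 34 members in 29 windows. In the windows of Psmb5 (chr14:54617946-54618245, minus strand) and Psmb6 (chr11:70525107-70525406, plus strand), capitals mark the only match, on either strand, to the core TGACNNNGC. It lies 47 to 39 bases before the start in Psmb5 and 9 to 1 bases before it in Psmb6.
Psmb5: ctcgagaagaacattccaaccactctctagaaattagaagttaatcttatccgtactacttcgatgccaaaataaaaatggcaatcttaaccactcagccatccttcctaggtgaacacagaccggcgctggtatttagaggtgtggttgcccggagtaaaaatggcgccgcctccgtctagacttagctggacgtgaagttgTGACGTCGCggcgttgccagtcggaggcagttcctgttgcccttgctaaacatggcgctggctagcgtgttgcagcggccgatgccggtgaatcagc
Psmb6: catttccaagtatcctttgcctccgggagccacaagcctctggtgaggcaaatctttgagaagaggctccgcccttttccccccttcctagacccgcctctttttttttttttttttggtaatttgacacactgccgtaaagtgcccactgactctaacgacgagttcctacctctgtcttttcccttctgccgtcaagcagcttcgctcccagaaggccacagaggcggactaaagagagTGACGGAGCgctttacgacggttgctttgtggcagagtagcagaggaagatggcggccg
This core was found in 4 of 29 member windows (13.79%; Psmb5, Psmb6, Psmd9 and Psmd12) and in 12.39% of all 32851 windows, searched on both strands. These counts describe letters in the window, not binding.

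The ATPase genes of the base held both the largest positive change and the smallest p of the members. Psmc3, the ATPase also called Rpt5, had 9.14, 9.12, 9.06 and 9.04 in young and 8.72, 8.89, 8.98 and 8.82 in old mice. All 4 old mice lay below all 4 young mice, the only such case among the 34, against 9.7% of all genes with groups that do not overlap (5.21% with old below young). Its change of -0.24 ± 0.07 (SE) had an interval from -0.40 to -0.08 and did not pass (limma adjusted p = 0.121; 0.0743 with array weights). Its lowest and highest changes over all alternatives were -0.28 and -0.19. Psmc4, or Rpt3, had 9.93, 9.97, 10.37 and 10.24 in young and 9.68, 9.68, 10.11 and 10.15 in old mice. Its replicates 3 and 4 were the higher pair at both ages. The change of Psmc4 was -0.22 ± 0.14 (limma adjusted p = 0.554), or 0.0773 as adjusted p with the run of title numbers as a block.

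Psmc5, or Rpt6, had 8.78, 8.56, 8.77 and 7.74 in young and 8.56, 8.74, 8.88 and 8.82 in old mice. Young replicate 4 was the lowest of the 8 mice, and the other 3 young mice overlapped the old mice. Its change of 0.29 ± 0.21, the largest of the 34, was 0.05 without that mouse. Psmc1 and Psmc2 had changes of -0.05 ± 0.13 and 0.06 ± 0.13.

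**Figure D2:**
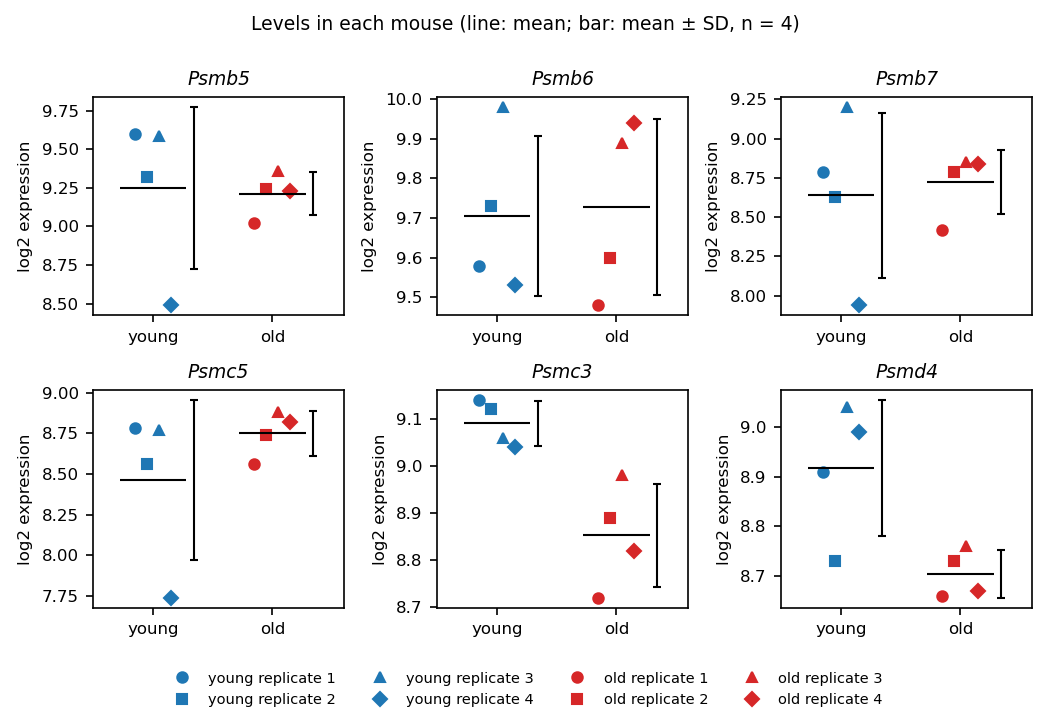
log2 expression (vertical axis, a separate range in each panel) of 3 catalytic beta genes, the ATPase genes Psmc5 and Psmc3 and the ubiquitin receptor gene Psmd4 in each of 4 young and 4 old mice; lines are means and bars mean ± SD. Young replicate 4 is the lowest of 8 mice for Psmb5, Psmb7 and Psmc5, and Psmc3 is the gene whose age groups do not overlap.

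The 3 non-ATPase base genes had lower means in old mice, as did 50.8% of all genes above 5.10. Psmd4, a receptor for ubiquitin chains, had 8.91, 8.73, 9.04 and 8.99 in young and 8.66, 8.73, 8.76 and 8.67 in old mice. Young replicate 2 lay within the old range and the other 3 young mice above it. The change of Psmd4 was -0.21 ± 0.08 (SE; limma adjusted p = 0.219), and its other probe sets had -0.14 and 0.03. The scaffold genes Psmd1 and Psmd2 had -0.13 ± 0.14 and -0.02 ± 0.12. The lid genes had changes from -0.18 (Psmd7) to 0.09 (Psmd8), with a median of -0.05. Of these, 6 of 8 were below 0, against the same 50.8%. Psmd14, the deubiquitinase of the lid, had 0.04 ± 0.15, and its partner Psmd7 had -0.18 ± 0.11. Psmd3, Psmd11, Psmd12 and Psmd13 had changes from -0.09 to -0.01.

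Psmd6 was the lid gene that varied most between mice. It had 8.34, 8.24, 8.90 and 8.52 in young and 8.10, 7.94, 8.94 and 8.74 in old mice. Replicates 3 and 4 were higher than replicates 1 and 2 at both ages, and the change with age was -0.07 ± 0.23. The assembly chaperone genes, whose products leave before the complex is complete, differed: Psmd5 had -0.26 ± 0.15 and Psmd9 0.02 ± 0.15. Psmd5 had 7.47, 7.29, 7.31 and 7.51 in young and 6.74, 7.0, 7.33 and 7.47 in old mice. Only old replicates 1 and 2 lay below all young mice, and its adjusted p was 0.484 by limma.

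The windows of Psmd4, the gene with the second smallest p, and Psmd6, the gene with the widest spread among old mice, are shown with the sequence CCGGAAG, an ETS factor site, in capitals. It was found in 10 of 29 member windows (9 genes) against 8.86% of all windows. The Psmd4 window is chr3:95042565-95042864 (minus strand) and the match lies 125 to 119 bases before the start. The Psmd6 window is chr14:14120896-14121195 (minus strand) with the match 45 to 39 bases before the start.
Psmd4: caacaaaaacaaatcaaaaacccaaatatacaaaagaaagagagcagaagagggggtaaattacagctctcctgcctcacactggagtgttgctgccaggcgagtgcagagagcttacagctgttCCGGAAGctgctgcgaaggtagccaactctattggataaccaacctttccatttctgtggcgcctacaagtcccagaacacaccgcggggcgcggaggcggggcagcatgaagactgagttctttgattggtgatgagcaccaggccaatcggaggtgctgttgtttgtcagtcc
Psmd6: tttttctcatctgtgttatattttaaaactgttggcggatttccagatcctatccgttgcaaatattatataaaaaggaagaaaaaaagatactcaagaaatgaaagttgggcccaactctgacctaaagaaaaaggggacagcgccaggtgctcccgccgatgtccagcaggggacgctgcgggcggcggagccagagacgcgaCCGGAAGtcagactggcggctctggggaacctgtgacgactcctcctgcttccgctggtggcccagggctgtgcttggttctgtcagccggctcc
Of the other motifs searched on both strands, the CCAAT box was in 11 of 29 member windows against 37.41% of all and the GC box GGGCGG in 16 against 35.66%. The shares were not tested.

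The members' values also differed between mice of the same age. The sample titles carry numbers in 2 runs, 1328 to 1331 and 1333 to 1336, each with 2 young and 2 old mice (replicates 1 and 2, and replicates 3 and 4). The study took 2 young and 2 old mice per day, but whether the runs are those days is not stated. Among the 32 members above 5.10, the second run had a higher mean than the first in 27 for the old mice, against 54.7% of all genes above 5.10, and in 17 for the young mice, against 42.0%. The median difference between runs was 0.21 in old and 0.01 in young mice, against 0.03 and -0.03 over all genes above 5.10. In Psma2, Psmb3, Psmc1, Psmc4 and Psmd6, all 4 mice of the second run lay above all 4 of the first, 5 of 32 against 4.89%. With age in the fit, the run difference was 0.40 ± 0.06 (SE) for Psmc4 and 0.62 ± 0.12 for Psmd6. By limma 0 members passed for the run (7 higher and 1 lower at an unadjusted p under 0.05, against 8.56% and 8.02% of all genes), against 0.0468% of all genes called higher and 0.0% lower. This comparison was chosen after the values were seen. Old replicate 1, the lowest old mouse in 25 of the 32 members (44.9% of all genes above 5.10), belongs to the first run. The difference between runs was not recalculated without it.

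Within the runs, the age change of the members had opposite medians. In the first run 29 of 32 had a lower mean in old mice (median -0.12), against 55.3% of all genes above 5.10. In the second run 22 of 32 had a higher mean in old mice (median 0.07), against 53.1%. Below 0 in both runs were 9 of 32, a share near the 31.2% of all genes above 5.10. Above 0 in both were 2 of 32, Psma3 and Psmd8, against 29.0%. A term for the difference between the runs passed limma's threshold for 0 members and 0.0% of all genes, with 2 members (Psma4 and Psmd5) and 7.33% of all genes at an unadjusted p under 0.05. Both medians depended on 1 mouse. Without old replicate 1 the first run's median was -0.05 with 22 of 32 below 0 (53.43% of all genes above 5.10). Without young replicate 4 the second run's median was -0.06, the opposite sign, with 11 of 32 above 0 (52.14%).

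**Figure D3:**
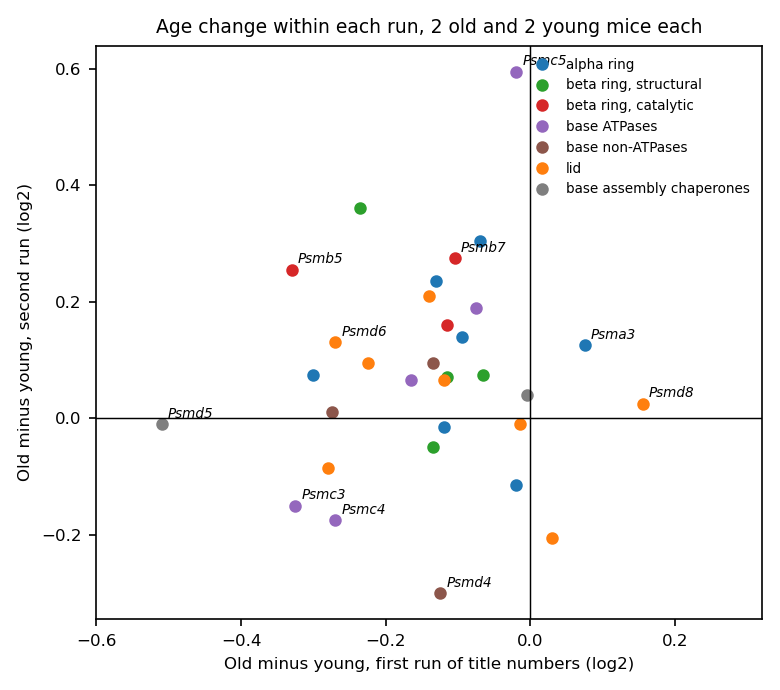
Age change of the 32 members above 5.10, old minus young (log2), in the first run of title numbers (horizontal axis) and the second (vertical axis), each from 2 old and 2 young mice, coloured by role. Most points lie left of 0 and above 0; Psmc3, Psmc4 and Psmd4 are below 0 in both runs.

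Old replicate 1 had the lowest value of the 4 old mice in 25 of the 32 members, against 44.9% of all genes above 5.10. Its median deviation from the old mice's median was -0.22 over the members and -0.05 over all genes above 5.10. Young replicate 4 was the lowest young mouse in 19 of 32, against 32.9%, and young replicate 3 the highest in 21 of 32, against 22.8%. In 4 members, Psmb5, Psmb7, Psmc5 and Psmd9, young replicate 4 lay over 0.5 below the median of the young mice, against 3.9% of all genes above 5.10. Beside this, the 3′ minus 5′ difference of the Gapdh control probe sets was -0.21 in young replicate 4 and -0.13 to -0.04 in the other mice, and that of actin was -0.41 against -0.66 to -0.51. In old replicate 1 they were -0.04 and -0.61, the former the highest of the 8. The part of RNA quality in these values was not tested.

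**Figure D4:**
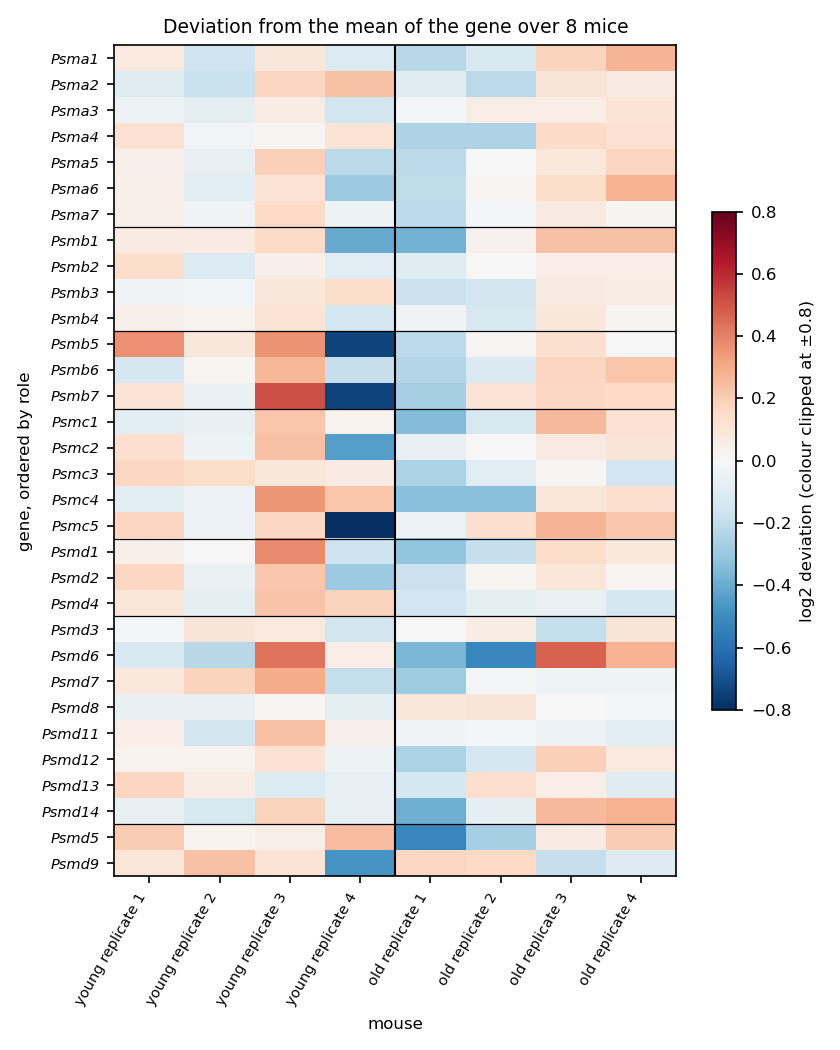
Deviation of each of the 32 members above 5.10 from its mean over the 8 mice (log2, colour), with genes ordered by role and mice by age. The column of old replicate 1 is mostly blue, and that of young replicate 4 is dark blue for Psmb5, Psmb7 and Psmc5.

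Other probe sets of the members were compared in the same way. The 34 genes had 18 further probe sets, spread over 11 genes. Those above 5.10 numbered 11, with changes from -0.31 (Psmd6) to 0.08 (Psmd11), and 0 of the 18 passed by limma over all named probe sets (1 of those 11 at an unadjusted p under 0.05). That 1 was the second probe set of Psmb3, with -0.30 against -0.09 for the brighter one. Among those under 5.10, a Psmd9 probe set with a mean of 4.13 had -0.21 (limma unadjusted p = 0.00998, adjusted p = 0.140). Its old mice all lay below its young mice. The brightest Psmd9 probe set had 0.02 and the remaining one, with a mean of 5.03, had 0.12. The second probe set of Psmc4 had -0.22, as did the first. One probe set of Psmd11, with a mean of 7.59, reached 8.48 in young replicate 4, its highest mouse.

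Of 36 other genes measured on 7 lists of the proteasome pathway, 1 rose and 1 fell, against the same 1.82% and 2.15% of all genes. The age groups did not overlap in 4 of the 36 (Ubqln2, Ngly1, Psme1 and Zfand2a), against 9.7% of all genes. Ubqln2, a shuttle that brings ubiquitinated proteins to the proteasome, fell from 8.39, 8.30, 8.12 and 8.37 in young to 7.75, 7.92, 7.81 and 7.88 in old mice. All old mice lay below all young mice, and the change was -0.46 ± 0.08 (SE; limma adjusted p = 0.0122). On the mean of its probe sets it was -0.32 (limma adjusted p = 0.151) and on its dimmest one above 5.10 it was -0.35 (limma adjusted p = 0.239), so the call rests on the brightest. Ngly1, the deglycosylase that activates Nfe2l1, rose from 5.22, 5.15, 5.21 and 5.08 in young to 5.43, 5.55, 5.54 and 5.45 in old mice. Its change was 0.33 ± 0.06 (limma adjusted p = 0.0236). Its level lay close to the 5.10 threshold, within the span of the non-specific control probe sets (2.98 to 7.20). Leaving out single mice ended its call for 5 of the 8 mice (young replicates 2 and 4 and old replicates 2, 3 and 4), with limma adjusted p up to 0.0797 without old replicate 2.

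The subunits that replace the catalytic ones after interferon had higher means in old mice on their brightest probe sets, and none passed. Psmb10 had 9.01, 8.91, 8.58 and 8.09 in young and 9.01, 9.29, 9.26 and 9.32 in old mice, a change of 0.57 ± 0.18 (limma adjusted p = 0.138). Psmb8 had 0.44 ± 0.20 and Psmb9 0.10 ± 0.11. On the mean of its probe sets Psmb8 had 0.25 and Psmb9 0.095. On its dimmest probe set above 5.10, Psmb9 had -0.15, the opposite sign. As for the catalytic members they replace, young replicate 4 was the lowest mouse for Psmb10 and Psmb8, at 8.09 and 9.06. Without it the changes were 0.39 for Psmb10 and 0.25 for Psmb8 (limma adjusted p = 0.147 and 0.525). Within the second run, which holds that mouse, they were 0.955 and 0.79, and within the first 0.19 and 0.095. Psme1, an activator cap subunit, had 0.33 ± 0.09 with groups that did not overlap (limma adjusted p = 0.0846), beside -0.07 ± 0.14 for its partner Psme2.

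Among regulators, Nfe2l1 had a change of 0.17 ± 0.08 (limma adjusted p = 0.347) and Nfe2l2 of 0.33 ± 0.12 (adjusted p = 0.227). Nfe2l2 had 8.42, 8.11, 8.47 and 8.78 in young and 8.69, 8.78, 8.80 and 8.82 in old mice, so that young replicate 4 lay within the old range. None of their small Maf partner genes passed: Mafk had 0.28 ± 0.11 (adjusted p = 0.271), Mafg 0.17 ± 0.11 (adjusted p = 0.540) and Maff -0.27 ± 0.13 (adjusted p = 0.400). The lid gene Sem1, which lies outside the naming pattern of the members, had -0.37 ± 0.15 (adjusted p = 0.262), and the stress-induced Zfand2a -0.33 ± 0.13 (adjusted p = 0.255) with groups that did not overlap. Pomp, the maturation factor of the core, had -0.12 ± 0.11 (adjusted p = 0.725). None of the 5 measured assembly factors, 4 activators and inhibitors, 7 other 26S parts and bound factors or the 1 measured ubiquitin-activating enzyme passed; 1 of 7 regulators and 1 of 9 delivery genes did.

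**Figure D5:**
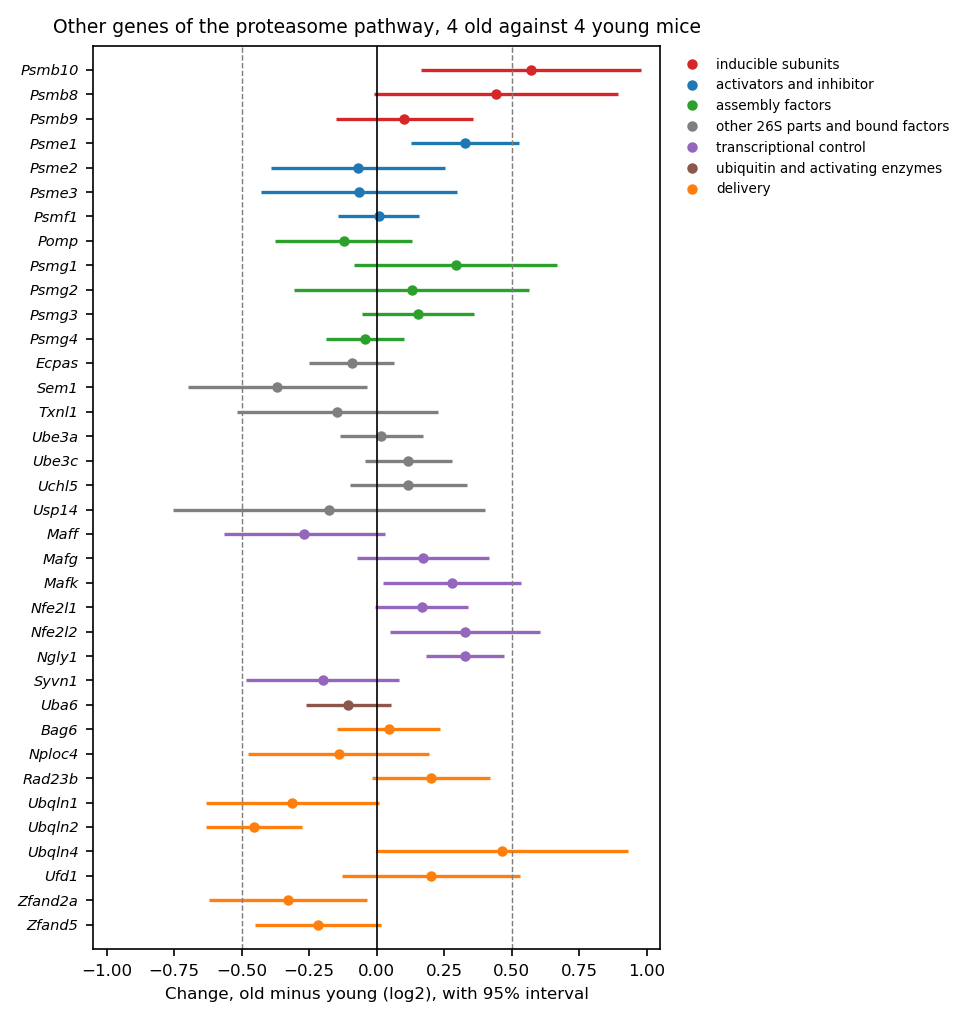
Change of 36 other genes of the proteasome pathway, old minus young (log2, horizontal axis), as points with 95% intervals from limma (n = 4 mice per age), coloured by list; dashed lines mark -0.5 and 0.5. Ubqln2 at -0.46 and Ngly1 at 0.33 are the 2 that passed the threshold.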

How the data were processed

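Expression was measured on 8 Affymetrix arrays, 1 per mouse, with no pooling. The deposited values are log2 expression per probe set, and the authors used RMA and affy to make them (submitters' processing notes, no version stated). The filter on probe sets and the genome build were not given in the sources used here. Of 45141 probe sets, 28898 had 1 symbol in the platform annotation, 551 several and 15692 none; 28689 matched a gene identifier in the RefSeq table and 0 symbols changed. The brightest probe set of each gene gave 17097 genes. Ages were compared with limma 3.58.1 in R 4.3.3 (lmFit, eBayes, 2-sided, Benjamini-Hochberg over all genes, threshold 0.05), which gave every adjusted p in the text. The arrays come from separate mice. No detection calls were used, and the number of arrays limits the precision. The members, roles, pathway lists and motifs were chosen with earlier results of these data known. Members past the threshold, those at an unadjusted p under 0.05 and Psmb5, Psmb6 and Psmb7 are given in every mouse; Psmc4, Psmc5, Psmd5 and Psmd6 were added after their values were seen. List genes are named by the same p, and Nfe2l1, Nfe2l2, Pomp and the inducible subunits always; Psme2, Maff and Mafg were added after their values were seen. Summed marker levels are log2 of the sum of unlogged values. Alternatives changed the prior, array weights, dim-gene filter, probe set choice, scaling, threshold and set of mice. The scripts were tested on simulated arrays.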

Additional observations from a re-analysis of the deposited data

Results flagged for a closer look

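In 5 of 68 groups of 4 mice tested over the members, 1 mouse stood apart from the others by Dixon's test; chance gives about 1 in 20 groups. Psmd7 was low in old replicate 1, at 8.62 against 8.87 to 8.89 in the other old mice. Psmb7 was also low in old replicate 1, at 8.42 against 8.79 to 8.85. Psmb1, a structural beta ring gene, was low in young replicate 4, at 8.37 against 8.84 to 8.93. Psmd8, a lid gene, was high in young replicate 3, at 11.26 against 11.18 to 11.19. Psma8 was low in old replicate 3, at 4.12 against 4.34 to 4.37, all below the dim threshold. The wide gaps of young replicate 4 in Psmb5, Psmb7 and Psmc5 did not pass this test.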

How the results depend on the processing

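Under all 18 alternatives, 0 members passed limma's threshold in either direction (1 to 3 had an unadjusted p under 0.05). The smallest adjusted p of any member was 0.0743, for Psmc3 with array weights. The members' median change lay between -0.03 and 0.01 in the alternatives that kept all mice and between -0.06 and 0.02 when 1 mouse was left out (lowest without young replicate 4, highest without young replicate 3). The members' median level varied between mice of the same age with an SD of 0.16. That is a spread of levels, not the error of these changes, so it does not measure their stability. Of 34 members, 12 kept the sign of their change throughout and 22 did not. The count of all genes called was 1082 at an adjusted p under 0.10 and 427 to 606 without single mice, where fewer samples entered the fit. Among the sets without 1 mouse, the counts furthest from the 679 of the full set were 427, 445, 448 and 451 without old replicate 2, old replicate 4, young replicate 3 and old replicate 3. With the title number block it was 919 and with array weights 952. On the dimmest probe set above the dim threshold, Psmd4, Psmd7 and Psmd11 changed sign, from -0.21, -0.18 and -0.09 to 0.03, 0.04 and 0.08. With the same choice Psmb3 and Psmd6 went further below 0, from -0.09 and -0.07 to -0.30 and -0.31. No paired fit was made, since the labels state no pairing of young with old mice and the replicate numbers follow accession order. With 4 mice per age, changes smaller than the intervals given cannot be told from none.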
